A study of Mus musculus with 77 samples.

Results

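The genes described here are the interferon-inducible and major histocompatibility complex (MHC) genes of mouse liver, taken as every ID of the array whose name begins with H2-, Ifi, Ifit, Ifitm, Irf, Oas, Gbp or Isg followed by a number or, for Oas, the letter l, and for H2- by any character. The rule used names alone and no measured value. It gave 85 of the 18138 IDs of the array: 25 MHC class I genes, 9 class II genes, 38 interferon-induced genes, 9 interferon regulatory factors (IRFs) and 4 genes that share only the name. The IDs are called genes below, although H2-T3 and H2-Tw3 now carry the same symbol, H2-T3, and are 2 IDs of 1 gene. The 4 that share only the name were H2-Ke6, a steroid dehydrogenase gene that lies in the MHC region, and Irf2bp1, Isg20l1 and Isg20l2.

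RNA of whole liver from male B6C3F1 mice, the hybrid of C57BL/6 and C3H, taken on day 7 of exposure was hybridized to Illumina bead arrays. There were 77 samples in 18 groups. The phthalate esters were di(2-ethylhexyl) phthalate (DEHP) at 750, 1500, 3000 and 6000 ppm, n-butyl benzyl phthalate (BBP) at 1500, 3000, 6000 and 12000 ppm and di-n-octyl phthalate (DNOP) at 1250, 2500, 5000 and 10000 ppm, and they shared 10 controls. Phenobarbital (PB), a barbiturate that induces liver enzymes, was given at 75, 150, 300 and 600 ppm with 4 controls of its own. Each dose group held 4 samples, except 3 at 10000 ppm DNOP. At each PB dose the samples formed pairs that share a number in the labels, such as 13 and 20 at 75 ppm. PB controls 3 and 4 share the number 12, and the phthalate controls share the numbers 32, 45, 63 and 75. Every phthalate dose sample has its own number. Where a number is shared, a fit that leaves out 1 array keeps the partner. In the PB groups and the controls, replicate numbers below count the samples and are not those of the labels. The labels name neither the medium of dosing, nor the age of the mice, nor whether each sample came from its own animal. P-values therefore describe sample-to-sample spread, which may be technical. The study asked how phthalates that activate the fatty acid receptor PPARA to different degrees act on the liver.

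Interferons are secreted proteins that act through receptors and STAT transcription factors, which bind a sequence called GAS as dimers and, together with Irf9, a sequence called ISRE. The genes switched on in this way block viral replication and present antigen. MHC class I molecules show peptides from inside almost any cell to killer T cells. MHC class II molecules show engulfed antigen to helper T cells and are made chiefly by dendritic cells, B cells and macrophages, which in the liver include the resident Kupffer cells. In bulk liver RNA, fewer cells of a type and less RNA per cell cannot be told apart.

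A gene counted as detected on an array when the deposited detection p-value was under 0.05, and it was tested when this held on at least 3 arrays, which 57 of the 85 genes met, among 11324 IDs tested. Of the 85, 42 were detected on at least 39 of the 77 arrays, 29 on all 77 and 18 on none. Among class I genes, H2-K1, H2-T23, H2-Q7, H2-Q8, H2-Q10, H2-M3 and H2-Bl were detected on every array, and 8 IDs were detected on none, among them H2-D4, H2-M1 and H2-Q2. One of the 8 was the ID H2-T3, while H2-Tw3, the other ID of that gene, was detected on 76 arrays. Among class II genes, H2-Ab1, H2-Eb1, H2-DMa and H2-DMb1 were detected on every array, and none was without a detection. Of the 38 interferon-induced genes, 9 were detected on all arrays and 10 on none. Those on all arrays included Ifitm3 and Ifitm2, membrane proteins that block viral entry, Oas2, a sensor of double-stranded RNA, and Gbp3, a guanylate-binding protein. Ifit1, Ifi44, Oas1a, Oas3 and Isg20, textbook markers of a strong interferon response, were among the 10 never detected. Of interferon targets outside the set, Mx2, Rsad2, Bst2 and Cxcl9 were detected on all 77 arrays and Cxcl11, Sp100 and Tor3a on none. Fabp1, a PPARA target, and Canx, of antigen processing, were also detected on none. Whether an undetected ID reflects its probe or its RNA was not tested. Irf1, Irf2, Irf3, Irf5, Irf7 and Irf9 were detected on every array, Irf8 on 46 and Irf4 on 2. The H2-Q, Oas1, Gbp and Ifi200 families hold near-identical genes whose probes may share targets, so values of their single members are uncertain.

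Promoter windows of 300 bases, with 250 before each start, were available for 66 of the 85 genes and 16 of the 20 that changed in any comparison below (RefSeq, build GRCm38.p6). For each class, genes with a match in any of their windows were counted, and for all promoters single windows were counted. The 2 kinds of share are therefore not in like units. The letters of the ISRE core (GAAA, any 2 bases and a second GAAA, on either strand) occurred in 14 of 29 interferon-induced genes (48.3%). They occurred in 1 of 8 IRFs (12.5%), 1 of 17 class I genes (5.88%), 0 of 7 class II genes and 1131 of all 32851 windows (3.44%). The letters of GAS (TTCNNNGAA, which read the same on either strand) occurred in 8 of 29 interferon-induced genes (27.6%) and 3 of 8 IRFs (37.5%). They occurred in 2 of 17 class I genes (11.8%), 1 of 7 class II genes (14.3%) and 2726 of all windows (8.3%). Matches of the 2 motifs may overlap in a window and were counted separately. The windows below belong to some of the genes that the results turn on. The window of Oasl2, an interferon-induced gene called with PB, holds neither set of letters and is not printed. Capitals mark the motif letters, of which Ifitm3 (chr7:141010695-141010994, minus strand) has 2 ISRE cores and a GAS that overlaps the second, Ifit3 (chr19:34583279-34583578, plus strand) has 2 ISRE cores, and Gbp3 (chr3:142559794-142560093, plus strand) has 2 that overlap. The windows of Irf5 (chr6:29526375-29526674, plus strand), of H2-Aa (chr17:34287774-34288073, minus strand) and of H2-Eb1 (chr17:34305617-34305916, plus strand), the last a pair of class II genes, hold neither set of letters.
Ifitm3: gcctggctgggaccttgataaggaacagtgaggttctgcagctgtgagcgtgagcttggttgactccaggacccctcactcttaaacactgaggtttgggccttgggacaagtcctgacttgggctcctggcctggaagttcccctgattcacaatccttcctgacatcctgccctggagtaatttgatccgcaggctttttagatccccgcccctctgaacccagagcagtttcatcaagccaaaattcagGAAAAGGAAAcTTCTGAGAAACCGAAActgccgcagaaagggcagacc
Ifit3: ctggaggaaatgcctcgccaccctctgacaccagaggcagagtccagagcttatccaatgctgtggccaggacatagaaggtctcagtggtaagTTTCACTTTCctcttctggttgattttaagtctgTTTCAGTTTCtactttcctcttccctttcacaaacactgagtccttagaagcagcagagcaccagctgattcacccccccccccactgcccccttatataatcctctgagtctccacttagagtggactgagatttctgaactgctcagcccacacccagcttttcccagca
Gbp3: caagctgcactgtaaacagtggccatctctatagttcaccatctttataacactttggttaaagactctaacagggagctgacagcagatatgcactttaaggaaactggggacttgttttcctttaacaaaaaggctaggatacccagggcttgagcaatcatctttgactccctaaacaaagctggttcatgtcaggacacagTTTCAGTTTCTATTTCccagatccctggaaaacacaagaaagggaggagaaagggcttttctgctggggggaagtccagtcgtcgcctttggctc
Irf5: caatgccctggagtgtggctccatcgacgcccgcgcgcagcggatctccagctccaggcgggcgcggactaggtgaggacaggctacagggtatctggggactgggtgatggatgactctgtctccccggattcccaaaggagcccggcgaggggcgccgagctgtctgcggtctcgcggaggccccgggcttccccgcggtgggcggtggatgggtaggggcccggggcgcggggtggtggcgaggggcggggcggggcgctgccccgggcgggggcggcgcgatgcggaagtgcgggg
H2-Aa: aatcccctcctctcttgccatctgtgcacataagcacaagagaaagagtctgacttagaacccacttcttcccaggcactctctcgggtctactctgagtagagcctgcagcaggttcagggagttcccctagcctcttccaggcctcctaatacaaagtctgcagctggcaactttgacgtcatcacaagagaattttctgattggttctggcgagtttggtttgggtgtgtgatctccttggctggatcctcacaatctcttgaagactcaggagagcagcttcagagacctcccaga
H2-Eb1: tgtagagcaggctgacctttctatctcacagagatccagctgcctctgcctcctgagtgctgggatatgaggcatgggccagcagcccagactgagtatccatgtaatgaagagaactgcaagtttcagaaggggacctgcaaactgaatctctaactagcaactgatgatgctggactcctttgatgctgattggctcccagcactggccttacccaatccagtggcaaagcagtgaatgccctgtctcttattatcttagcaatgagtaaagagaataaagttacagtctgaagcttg

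Values below are background-corrected and quantile-normalized intensities on a log2 scale, and differences are log2, with a standard error (SE) from 1 limma fit of all 77 samples. A gene was called changed at an adjusted p under 0.05 within a comparison. On the arrays of the PB controls 36.88% to 41.15% of IDs were detected, against 40.51% to 45.87% in PB dose groups and 36.88% to 46.64% over all arrays. The 3 phthalate controls numbered 32 in the labels had the lowest mean of the 15 interferon-induced genes among the 10 controls (6.60, 6.72 and 6.47, against 6.73 to 7.15 in the others), so counts without them are given where they differ by more than 1.5 times. Over the 16 comparisons of a dose with its controls, 20 of the 57 genes were called in at least 1 comparison, with 16 calls higher and 27 lower (the plot of called changes by dose). By compound, 9 genes were called with DEHP, 3 with BBP, none with DNOP and 11 with PB. The share of all tested IDs called in at least 1 of these comparisons was not counted, so these totals have no background beside them. Single dose comparisons called 0.0% to 11.6% of all tested IDs.

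**Figure D1:**
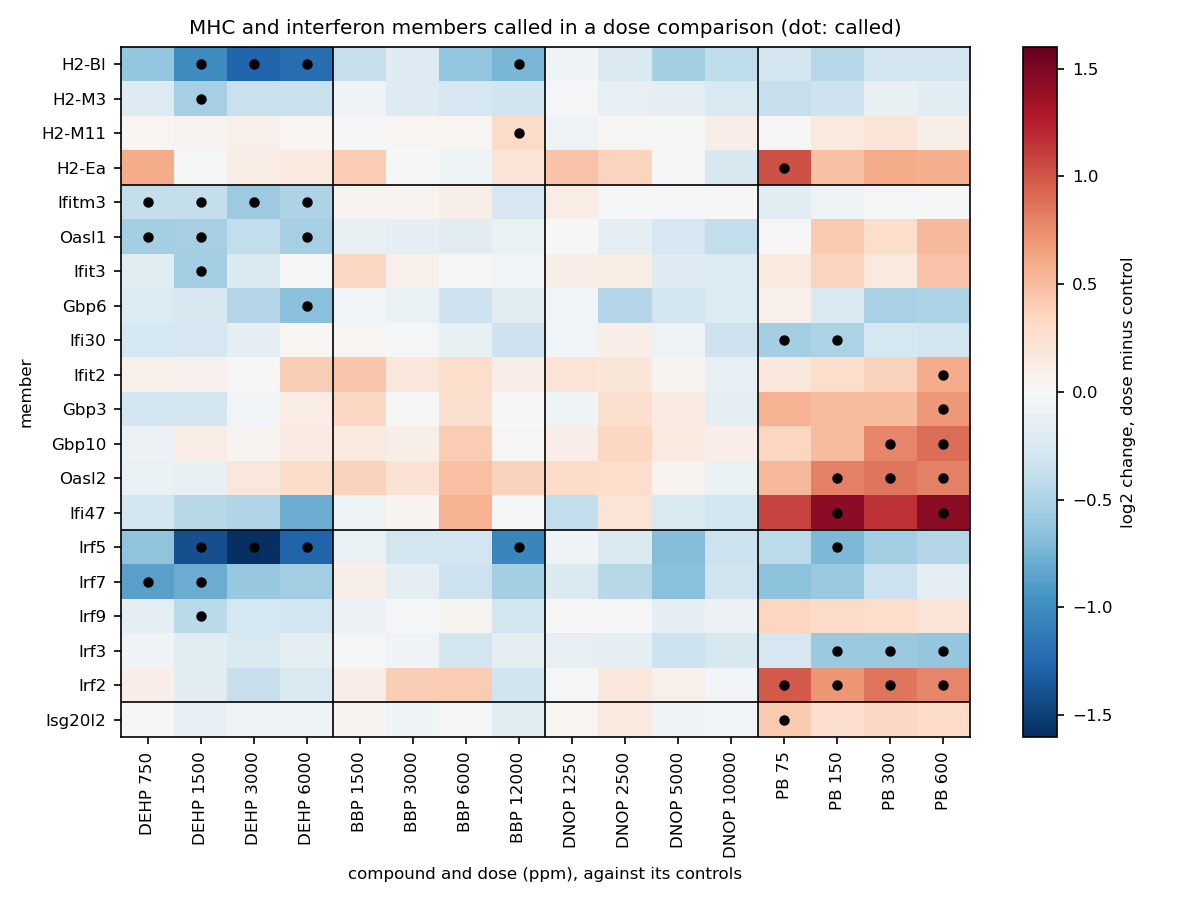
Log2 change of the called genes (rows) in each comparison of a dose with its controls (columns), on a colour scale with called changes marked. All 19 calls with DEHP are lower, DNOP has none, and PB has 15 higher and 6 lower.

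Each DEHP dose had genes called lower, of which Ifitm3 alone was called at all 4 doses, and none was called higher. The exception was Ifit2 at 6000 ppm when arrays were centred on their medians (0.55, SE 0.163, adjusted p = 0.0211). Irf5, a transcription factor that macrophages use downstream of Toll-like receptors, and H2-Bl, a nonclassical class I gene, fell at 1500, 3000 and 6000 ppm, to less than 0.5 of the control intensity. Ifitm3 fell by a smaller step at all 4 doses. Irf7, the regulator that amplifies type I interferon, fell at 750 and 1500 ppm. The called genes numbered 3 at 750 ppm (percent of all tested IDs called, 1.91), 8 at 1500 ppm (4.59), 3 at 3000 ppm (8.43) and 5 at 6000 ppm (9.39), all of them lower. Counted in the lower direction alone, the share of all tested IDs was 0.777%, 2.05%, 3.99% and 4.16% in the same order. Read against those lower shares, 3 of 57 at 750 ppm (5.26%), 8 of 57 at 1500 ppm and 5 of 57 at 6000 ppm (8.77%) are larger, and 3 of 57 at 3000 ppm (5.26%) is near the background. None of these differences was tested. Without the controls numbered 32 the counts at 750 and 3000 ppm were 5 each.

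Irf5 read 5.29, 5.64, 6.30 and 5.58 at 1500 ppm DEHP, 4.99, 5.89, 5.58 and 5.57 at 3000 ppm and 6.58, 5.49, 5.43 and 5.85 at 6000 ppm, against 6.66 (lowest), 7.03 (median) and 7.83 (highest) in the 10 controls. No sample of these 3 doses reached the lowest control. At 750 ppm the values of 7.02, 6.45, 6.46 and 5.94 overlapped the controls, and the difference of -0.65 was not called (SE 0.207, adjusted p = 0.0937). The differences were -1.41 at 1500 ppm (SE 0.207, adjusted p = 1.71e-06), -1.61 at 3000 ppm (adjusted p = 2.3e-08) and -1.28 at 6000 ppm (adjusted p = 5.64e-06). The intensity fell to 0.375, 0.327 and 0.413 of the control in the same order. Each of these 3 calls held when any 1 array of its groups was left out.

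H2-Bl read 6.07, 6.27, 5.27 and 6.11 at 1500 ppm DEHP, 5.76, 5.55, 5.48 and 5.87 at 3000 ppm and 6.37, 5.24, 5.40 and 5.87 at 6000 ppm, against 6.56 (lowest), 6.88 (median) and 7.50 (highest) in the controls. These groups too lay wholly below the controls. The differences were -1.01 (SE 0.198, adjusted p = 0.000397), -1.27 (adjusted p = 2.72e-06) and -1.22 (adjusted p = 5.63e-06), and each call held without any 1 array. At 750 ppm the difference was -0.62 (adjusted p = 0.0903).

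The size of these changes depended on the background correction: at 3000 ppm, Irf5 differed by -0.78 and H2-Bl by -0.62 with no correction, and by -0.48 and -0.37 with the neqc background. With each array centred on its median, which put the median of all IDs 0.12 and 0.14 above the controls at 3000 and 6000 ppm, the differences relative to that median were -1.50 and -1.17 for Irf5 and -1.13 and -1.10 for H2-Bl. Ifitm3, far above background on every array, ranged from -0.58 to -0.40 at 3000 ppm over the scalings. With arrays centred on their medians its calls at 750, 1500 and 3000 ppm were lost (adjusted p = 0.134, 0.298 and 0.0851), while those of Irf5 and H2-Bl at 1500, 3000 and 6000 ppm and of Ifitm3 at 6000 ppm (adjusted p = 0.0491) were not. It read 12.43, 12.63, 12.77 and 12.55 at 3000 ppm and 12.99, 12.37, 12.55 and 12.81 at 6000 ppm DEHP, against 12.65 (lowest), 13.25 (median) and 13.45 (highest) in the controls. At 3000 ppm the range of the dose reached past the lowest control alone, and at 6000 ppm past the 2 lowest. Its differences from 750 to 6000 ppm were -0.38, -0.38, -0.58 and -0.49 (SE 0.0946), with adjusted p = 0.016, 0.0071, 7.58e-06 and 0.000118. The calls at 750 ppm were lost without replicate 2 or 4 of that dose, at a difference as small as -0.32, and the call at 1500 ppm without replicate 4.

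The other DEHP calls were less steady over samples, and with arrays centred on their medians Gbp6 at 6000 ppm (-0.62) was the only one of them still called. Irf7 fell by 0.87 at 750 ppm (SE 0.212, adjusted p = 0.0137) and by 0.80 at 1500 ppm (adjusted p = 0.0132). It read 6.48, 4.97, 5.64 and 5.04 at 750 ppm and 5.50, 5.75, 6.03 and 5.14 at 1500 ppm DEHP, against 5.89 (lowest), 6.41 (median) and 6.94 (highest) in the controls, so both doses overlapped the controls. Its call was lost without replicate 2 or 4 at 750 ppm and without replicate 1 or 4 at 1500 ppm. Oasl1, an OAS-like protein that restrains Irf7 translation in mice, fell by 0.55, 0.53 and 0.53 at 750, 1500 and 6000 ppm (SE 0.155, adjusted p = 0.0432, 0.0281 and 0.0163), and the call held in 6, 9 and 12 of 14 fits that each left out 1 array. At 1500 ppm H2-M3, a class I molecule that presents formylated bacterial peptides, fell by 0.53 (adjusted p = 0.0347), Ifit3, which binds viral RNA with its relatives, by 0.54 (adjusted p = 0.049), and Irf9, the DNA-binding partner of STAT proteins, by 0.43 (adjusted p = 0.0484). These held in 7, 4 and 2 of 14 such fits. Gbp6 fell by 0.67 at 6000 ppm (SE 0.183, adjusted p = 0.00925), where it was detected on 2 of 4 arrays, against 10 of 10 in the controls, and the call was lost without replicate 2 of that dose.

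The rest of these genes showed no call with DEHP. No class II gene was called at any DEHP dose, and the median over the 6 tested was -0.09, -0.34, -0.04 and -0.01 from 750 to 6000 ppm, beside 0.00 to -0.01 for all IDs. Among the 24 tested interferon-induced genes, 18, 19, 14 and 11 were below 0 from 750 to 6000 ppm. Among the 8 tested IRFs, 5, 7, 7 and 7 were below 0. At 6000 ppm the genes with the highest differences were Oas2 at 0.43 (SE 0.221, adjusted p = 0.263), Ifit2 at 0.39 (SE 0.136, adjusted p = 0.057) and Ifi27 at 0.35 (SE 0.387, adjusted p = 0.693). The lowest after Irf5 and H2-Bl was Ifi47, an interferon-induced GTPase, at -0.79 (SE 0.408, adjusted p = 0.261).

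**Figure D2:**
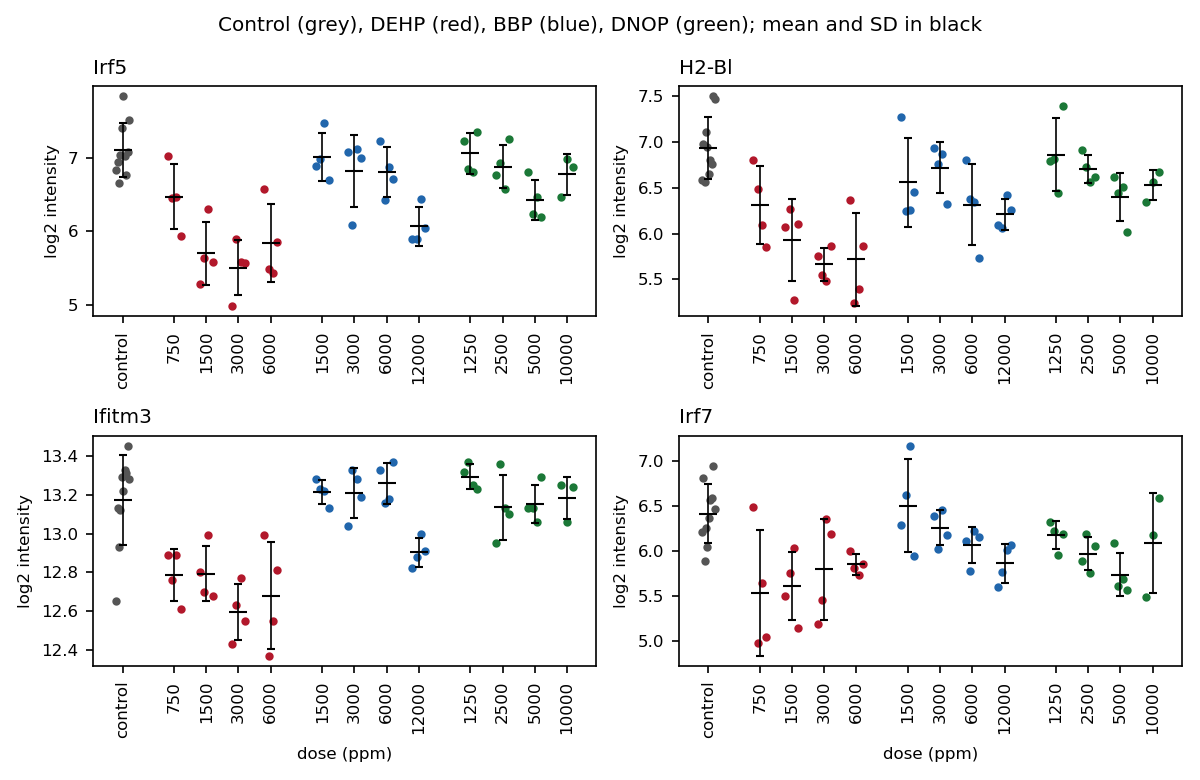
Log2 normalized intensity of Irf5, H2-Bl, Ifitm3 and Irf7 in each phthalate sample (points) with the group mean and SD (black bars), by dose from the controls upward. For Irf5 and H2-Bl, every DEHP sample from 1500 ppm up and every sample at 12000 ppm BBP lies below the lowest control.

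With BBP, genes were called at the highest dose, and the doses were not tested against each other. At 12000 ppm 3 of 57 genes were called (percent of all tested IDs called, 2.92). Irf5 read 5.89, 5.89, 6.44 and 6.05, all below the lowest control of 6.66, and fell by 1.05 (SE 0.207, adjusted p = 0.000699), a call that held without any 1 array but was lost with arrays centred on their medians (adjusted p = 0.0967). H2-Bl read 6.10, 6.06, 6.42 and 6.26, all below the lowest control of 6.56, and fell by 0.73 (SE 0.198, adjusted p = 0.024). Its call was lost without replicate 1, 2 or 4 of that dose and with arrays centred (adjusted p = 0.452), as was that of H2-M11 (0.185). H2-M11, a class I gene detected on 2 of 4 arrays at this dose and on 0 of 10 control arrays, was at least 1.15-fold higher (adjusted p = 0.0439), and the call held in 7 of 14 fits without 1 array. Over all groups H2-M11 was detected on 3 arrays, the fewest that allowed a test, and 2 of them were at this dose. Without the arrays of this dose it would not have been tested, so its call is not independent of the filter. Ifitm3 averaged 12.90 ± 0.0755 (SD, n = 4) and differed by -0.27 (SE 0.0946, adjusted p = 0.116), which was not called.

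At 1500, 3000 and 6000 ppm BBP none of the genes was called by limma (percent of all tested IDs called, 0.0, 0.0 and 0.0795), and 5, 1 and 8 had an unadjusted p under 0.05. Weighting arrays by quality also called none. For Irf5 the differences were -0.11, -0.30 and -0.31, with 95% intervals of -0.52 to 0.31, -0.71 to 0.11 and -0.72 to 0.11. For Ifitm3 they were 0.04, 0.04 and 0.09. For H2-Bl the difference of -0.62 at 6000 ppm (95% interval -1.02 to -0.23, adjusted p = 0.244) was not called. The class II genes all lay above 0 at 1500 ppm BBP, with a median of 0.39 and no call.

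DNOP gave no call among these genes by limma at any of its 4 doses. The percent of all tested IDs called was 0.0, 0.238, 0.212 and 0.0618 from 1250 to 10000 ppm, and 1, 4, 8 and 3 of the genes had an unadjusted p under 0.05. With arrays weighted by quality, 0, 1, 2 and 3 were called. Irf5 read 6.80, 6.24, 6.46 and 6.20 at 5000 ppm, with 3 samples below the lowest control, and differed by -0.69 (95% interval -1.10 to -0.27, adjusted p = 0.189). At 10000 ppm, with 6.46, 6.98 and 6.88, the difference was -0.34 (95% interval -0.80 to 0.12). At 10000 ppm the lowest genes were all of class II: H2-Ab1 at -0.50 (SE 0.253), H2-DMa at -0.43 (SE 0.225) and H2-Eb1 at -0.43 (SE 0.283), with adjusted p = 0.942 to 0.961. The highest were H2-Tw3 at 0.38, Irf8 at 0.24 and Ifitm2 at 0.23, none of them called.

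DEHP and BBP were given at 3 common doses, so both esters can be compared there, and every call was lower with DEHP. These differ in their side chains, with 2-ethylhexyl groups in DEHP and a benzyl and a butyl group in BBP. The calls numbered 4 at 1500 ppm (percent of all tested IDs called, 1.69), 4 at 3000 ppm (4.11) and 3 at 6000 ppm (2.25). In the lower direction alone the share of all IDs was 0.565%, 2.01% and 0.574%. At 1500 ppm they were Irf5 at -1.31 (SE 0.243, adjusted p = 0.000414), Irf7 at -0.89 (SE 0.247, adjusted p = 0.0392), Ifit3 at -0.87 (SE 0.197, adjusted p = 0.00626) and Ifitm3 at -0.43 (SE 0.111, adjusted p = 0.0238). Ifit3 read 6.69, 7.08, 6.42 and 6.31 with DEHP, against 7.31, 7.64, 7.80 and 7.25 with BBP, with no overlap.

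At 3000 ppm they were Irf5 at -1.31 (adjusted p = 0.000136), H2-Bl at -1.06 (adjusted p = 0.00187), Irf2 at -0.76 (adjusted p = 0.00792) and Ifitm3 at -0.61 (adjusted p = 8.71e-05). At 6000 ppm they were Irf5 at -0.97 (adjusted p = 0.0131), Irf2 at -0.65 (adjusted p = 0.0474) and Ifitm3 at -0.58 (adjusted p = 0.000354). Irf2, a factor that competes with Irf1 for its sites, was not called against the phthalate controls with either ester: at 3000 ppm it differed from the controls by -0.37 with DEHP and by 0.39 with BBP. It read 10.46, 10.79, 10.71 and 10.78 with DEHP, against 11.85, 11.22, 11.36 and 11.33 with BBP. The calls of Irf5 at 1500 and 3000 ppm, of H2-Bl at 3000 ppm and of Ifitm3 at 3000 and 6000 ppm held without any 1 array. Of the others, Ifit3 was lost without DEHP replicate 4, Irf2 at 3000 ppm without BBP replicate 1, and Irf5 at 6000 ppm without BBP replicate 1 or DEHP replicate 2 or 3. Irf7 and Ifitm3 at 1500 ppm and Irf2 at 6000 ppm were kept in 3, 2 and 2 of 8 such fits. With arrays centred on their medians, Irf5 at 1500 and 3000 ppm (adjusted p = 0.0101 and 0.0386) and Ifitm3 at 6000 ppm (adjusted p = 0.04) stayed called and the other 8 calls were lost. BBP at 12000 ppm and DEHP at 6000 ppm differ in dose and were not compared, and both are set against the same controls.

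The wider pathway gives a frame for these calls. A list of 43 other interferon targets, 33 of them tested, had 3, 7, 4 and 3 lower calls and no higher call from 750 to 6000 ppm DEHP, with medians of -0.17, -0.19, -0.20 and -0.11 beside -0.01 to 0.00 for all IDs. Mx2, an antiviral GTPase, was among them at every DEHP dose (-0.84, -0.90, -0.84 and -0.73, SE 0.24). Ly6e, a membrane protein that limits viral entry, fell by 0.88 at 750 ppm and by 0.90 at 3000 ppm (SE 0.243). Rsad2, the antiviral enzyme viperin, fell by 0.97 at 1500 ppm (SE 0.256) and Parp14, an ADP-ribosyltransferase, by 0.83 (SE 0.198). Rtp4, which restrains interferon signalling in mice, fell by 0.69 at 750 ppm (SE 0.175). With BBP none of the 33 was called at any dose, and with DNOP the only call was Zbp1 at 2500 ppm, which was detected on 0 of 4 arrays there and on 2 of 10 in the controls.

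Of 20 tested genes of antigen processing, 0, 1, 3 and 2 were lower and 0, 0, 1 and 1 higher from 750 to 6000 ppm DEHP. Psmb10, a catalytic subunit of the immunoproteasome that cuts peptides for class I, fell by 0.79 at 1500 ppm, 0.90 at 3000 ppm and 0.63 at 6000 ppm DEHP (SE 0.17, adjusted p = 0.00133, 0.000107 and 0.00835) and by 0.61 at 12000 ppm BBP (adjusted p = 0.0269). Psmb8, another immunoproteasome subunit, fell by 0.60 at 3000 ppm DEHP (adjusted p = 0.0236). Calr, a chaperone of class I assembly, fell by 1.25 at 6000 ppm DEHP and by 1.14 at 12000 ppm BBP (SE 0.341). Cd1d1, which presents lipids, rose by 0.57 at 3000 ppm DEHP and by 0.56 at 12000 ppm BBP (SE 0.156), and Psme1, a proteasome activator subunit, by 0.45 at 6000 ppm DEHP (SE 0.0932). Of 13 tested receptor and signalling genes, the only DEHP call was Usp18, the protease that removes Isg15, which fell by 0.82 at 1500 ppm (SE 0.227, adjusted p = 0.0212).

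Markers of several cell types moved with some of these results. Of 13 tested Kupffer cell and macrophage markers, 3 were lower at 1500 ppm DEHP, where the list's median was -0.44 and its mean over genes ran from 5.91 to 6.56, against 6.07 to 7.64 in the controls. At 3000 ppm none was called and the range was 6.13 to 7.27. At 6000 ppm none was called, the list's median was 0.19 and its range was 6.56 to 7.31. Of 5 tested red cell markers, 0, 0, 2 and 1 were lower from 750 to 6000 ppm, with medians of -0.33, -0.51, -0.52 and -0.64, and their mean ran from 7.40 to 7.62 at 3000 ppm and from 6.96 to 7.81 at 6000 ppm, against 7.40 to 8.76 in the controls. Of 11 hepatocyte markers, 0, 0, 1 and 2 were lower, with a mean of 10.35 to 10.71 at 6000 ppm, against 10.77 to 11.27 in the controls. Of 10 endothelial markers 1 was lower at each of 1500, 3000 and 6000 ppm, and the median of 6 neutrophil markers was -0.30, -0.32, -0.24 and 0.02 from 750 to 6000 ppm with no call. No marker of these lists was called higher. The Kupffer markers Clec4f, Vsig4, C1qa, C1qb and C1qc were detected on all 77 arrays and Cd5l on none. Of the T cell markers Cd2 and Cd8a were detected on no array and Cd4 on 1, of the dendritic cell markers Itgax, Xcr1 and Cd209a on none and Clec9a on 1, of the B cell markers Pax5 and Blk on none, and of the NK cell markers Ncr1 and Gzmb on none. The part of cell numbers in the DEHP calls was not tested at any dose.

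Calls with PB against the PB controls went in both directions. Higher in PB livers were Irf2 at all 4 doses, and at some doses the interferon-induced genes Oasl2, Ifi47, Gbp10, Gbp3 and Ifit2. Lower were Irf3, the sensor-activated factor that starts type I interferon transcription, Irf5 and Ifi30, a lysosomal thiol reductase. Of 57 genes, 4 were called at 75 ppm (percent of all tested IDs called, 6.49), 6 at 150 ppm (11.6), 4 at 300 ppm (8.42) and 7 at 600 ppm (9.97). By direction, 3, 3, 3 and 6 were higher and 1, 3, 1 and 1 lower. Over both directions these shares of 57 (7.02%, 10.5%, 7.02% and 12.3%) are near those of all IDs. Counted by direction, the share of all IDs called was 2.54%, 4.81%, 3.23% and 4.36% higher and 3.95%, 6.77%, 5.19% and 5.61% lower from 75 to 600 ppm. With each array centred on its median instead of quantile normalized, the median of all IDs itself lay 0.17, 0.55, 0.47 and 0.54 above the PB controls from 75 to 600 ppm. The calls among the 57 genes were then 0, 23, 25 and 31, all higher. Of all 11324 tested IDs, 16, 5191, 3913 and 5161 were called in the same order.

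Irf2 read 10.94, 12.02, 11.44 and 11.77 at 75 ppm PB, 11.33, 11.22, 11.54 and 10.97 at 150 ppm, 11.36, 11.74, 11.27 and 11.27 at 300 ppm and 11.38, 11.38, 11.13 and 11.47 at 600 ppm, against 10.19, 10.95, 10.31 and 10.77 in the PB controls. At 150, 300 and 600 ppm every sample lay above every PB control, and at 75 ppm 1 sample overlapped. The differences were 0.98, 0.71, 0.85 and 0.78 (SE 0.196, adjusted p = 0.000891, 0.0129, 0.0031 and 0.00537). With arrays centred on their medians, Irf2 lay 1.22, 1.09, 1.30 and 1.17 above the median of all IDs. The call held without any 1 array at 75 and 300 ppm, was lost without PB control 1 or replicate 3 at 150 ppm, and without PB control 1 at 600 ppm (adjusted p = 0.0502). The values of the 4 doses overlapped one another.

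Irf3 read 8.96, 8.76, 8.77 and 8.65 at 600 ppm PB, against 9.39, 9.37, 9.40 and 9.47 in the PB controls, without overlap. It differed by -0.60, -0.60 and -0.62 at 150, 300 and 600 ppm (SE 0.174, adjusted p = 0.0169, 0.0199 and 0.0134), and with arrays centred on their medians by 0.45, 0.35 and 0.44, which was -0.10, -0.12 and -0.10 relative to all IDs. Irf5 at 150 ppm (-0.72, SE 0.251, adjusted p = 0.0491) and Ifi30 at 150 ppm (-0.51, SE 0.17, adjusted p = 0.0391) likewise turned to 0.34 and 0.22 when centred, which was -0.21 and -0.33 relative to all IDs. Ifi30 at 75 ppm differed by -0.55 (adjusted p = 0.0384) and, when centred, by -0.13. The Irf3 call held without any 1 array at 600 ppm and was lost without replicate 2 at 150 ppm and without PB control 1 or replicate 2 at 300 ppm, while Irf5 and Ifi30 at 150 ppm were each kept in 2 of 8 such fits.

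Of the interferon-induced genes, Ifi47 had the largest fitted changes, 1.43 at 150 ppm and 1.45 at 600 ppm PB (SE 0.494, adjusted p = 0.0473 and 0.0486). It read 6.64, 7.85, 8.17 and 7.89 at 150 ppm and 7.29, 8.34, 6.63 and 8.35 at 600 ppm, against 6.31, 6.74, 6.16 and 5.56 in the PB controls, and 1 sample of each dose overlapped the controls. Its call was kept in 2 and 3 of 8 fits without 1 array. Oasl2, an OAS-like protein, differed by 0.80, 0.85 and 0.81 at 150, 300 and 600 ppm (SE 0.271, adjusted p = 0.0427, 0.038 and 0.0435), kept in 2, 3 and 1 of 8 fits. Oasl2 was detected on 2 of 4 PB control arrays, and PB control 1 at 4.44 lay below the others at 4.85 to 4.88.

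Gbp10 was detected on 0 of 4 PB control arrays and was at least 1.63-fold higher at 300 ppm (adjusted p = 0.0266) and at least 1.76-fold higher at 600 ppm PB (adjusted p = 0.00833). Its call was lost at 600 ppm without PB control 1 or replicate 4, and at 300 ppm without PB control 1 or replicate 2, 3 or 4. Gbp3 read 7.06, 6.61, 6.81 and 7.55 at 600 ppm PB, against 6.44, 6.23, 6.44 and 6.13 in the PB controls, a difference of 0.70 without overlap (SE 0.215, adjusted p = 0.0273), which was lost without PB control 2 or 4 or replicate 1 or 4. Ifit2, a relative of Ifit3, rose by 0.59 at 600 ppm (SE 0.165, adjusted p = 0.0134) and was lost without PB control 2. At 75 ppm H2-Ea, the class II E alpha chain, which C57BL/6 mice do not make and C3H mice do, was at least 1.98-fold higher (adjusted p = 0.00717). It read 5.50, 6.58, 4.70 and 5.74 at 75 ppm, against 4.47, 4.99, 4.41 and 4.52 in the PB controls, and was lost without replicate 2, the highest. Isg20l2, a nucleolar nuclease and no interferon target by name alone, rose by 0.42 at 75 ppm (adjusted p = 0.0336), a call lost without PB control 1 or 3 or replicate 2 or 3.

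**Figure D3:**
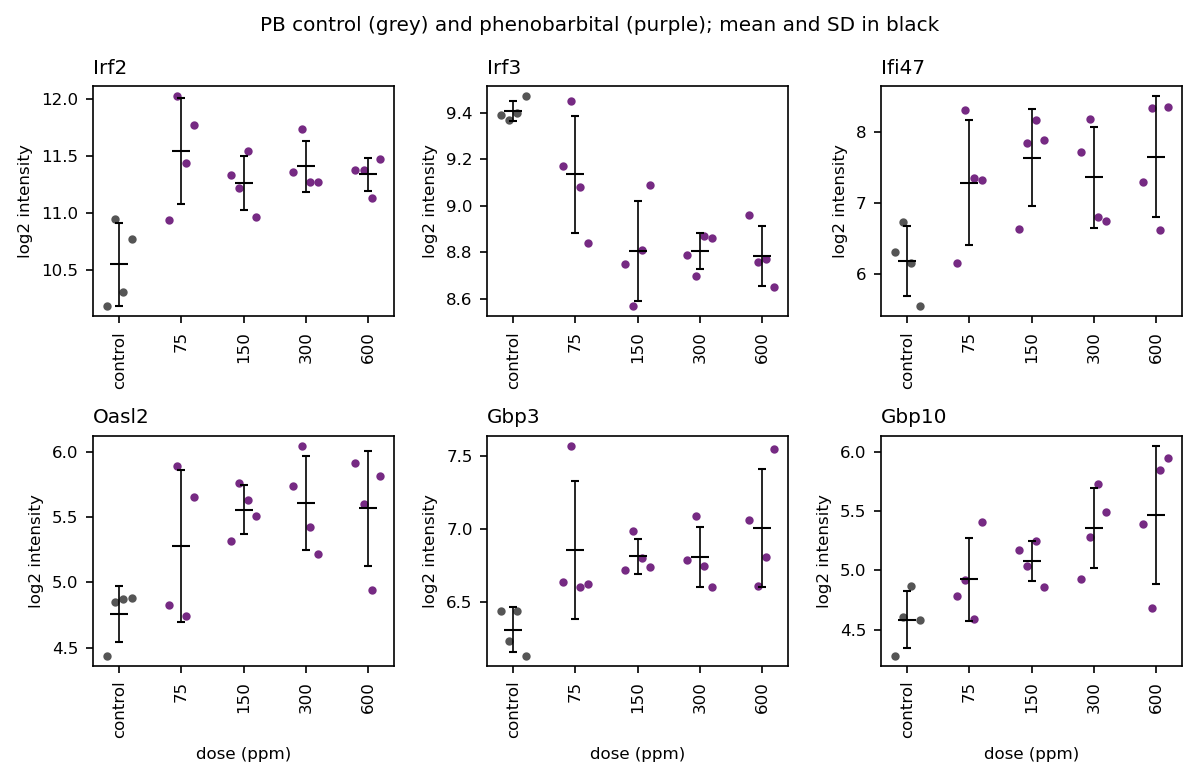
Log2 normalized intensity of 6 genes called with PB in each PB sample (points) with the group mean and SD (black bars), by dose from the PB controls upward. Irf2 lies above the PB controls in every sample at 150, 300 and 600 ppm, and Irf3 below them.

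No class I gene was called at any PB dose, and the median over the 15 tested was -0.21, -0.06, -0.05 and -0.08 from 75 to 600 ppm. Among the 24 interferon-induced genes, 16, 17, 17 and 19 were above 0, with medians of 0.09, 0.11, 0.14 and 0.23 beside 0.00 to 0.01 for all IDs. H2-Aa, the class II A alpha chain, differed by 1.17 at 600 ppm (SE 0.486, adjusted p = 0.116), and the lowest after Irf3 were H2-Q10 at -0.52 (adjusted p = 0.251) and Gbp6 at -0.51 (adjusted p = 0.137). Of the 33 other interferon targets, 0, 1, 0 and 1 were higher and 2, 2, 1 and 1 lower from 75 to 600 ppm. Parp12, an antiviral ADP-ribosyltransferase, rose by 1.52 at 150 ppm and by 1.29 at 600 ppm (SE 0.398), where it was detected on 4 of 4 arrays, against 2 of 4 in the PB controls. Zbp1, a sensor of Z-form nucleic acids, was called lower at all 4 doses (adjusted p = 0.000256, 3.54e-05, 5.11e-05 and 7.06e-05), but it was detected on 0 of 4 PB control arrays and on at most 1 of 4 at any dose, so no size is given. Trex1, an exonuclease that clears cytosolic DNA, fell by 0.80 at 150 ppm (SE 0.25), and Lgals3bp, a secreted glycoprotein, by 0.83 at 75 ppm (SE 0.234). Psmb9, an immunoproteasome subunit, rose by 0.81 at 150 ppm and by 0.97 at 600 ppm (SE 0.272), while Psmb8 fell by 0.72 at 300 ppm (SE 0.219). Pdia3, also of antigen processing, rose by 0.79, 0.82, 0.97 and 0.86 from 75 to 600 ppm (SE 0.221). Both Psmb9 (-0.88, SE 0.228, adjusted p = 0.0135) and Pdia3 (-0.70, SE 0.186, adjusted p = 0.0159) were lower in the PB controls than in the phthalate controls. Of the 13 Kupffer cell markers 1 was higher at 600 ppm, where the list's mean ran from 6.77 to 7.72, against 6.56 to 7.07 in the PB controls. Of 4 tested NK cell markers 1 was lower at each of 150, 300 and 600 ppm, with medians of -0.10, -0.16 and -0.21 and a mean of 4.86 to 4.90 at 600 ppm, against 5.16 to 5.47 in the PB controls. Of 11 hepatocyte markers 1 was lower at 600 ppm, and 1 of 4 dendritic cell markers was higher at 75 ppm. The part of these markers and of the dim control arrays in the PB calls was not tested.

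PB controls differed from phthalate controls in 2 of the 57 genes (percent of all tested IDs called, 4.69), Oasl1 at -0.51 (SE 0.157, adjusted p = 0.0418) and Isg20l2 at -0.40 (SE 0.106, adjusted p = 0.0174). The Isg20l2 call was lost without PB control 1, and the Oasl1 call was kept in 7 of 14 fits without 1 array. Of the pathway genes outside the set, Psmb9, Pdia3 and Adar were called lower in the PB controls and Zbp1 higher. Unadjusted p was under 0.05 for 8 of the 57 genes, 4 of them IRFs, beside 2148 of all 11324 tested IDs. Irf2 averaged 10.56 and Irf3 9.41 in the PB controls, against 11.1 and 8.96 over all 77 arrays. Neither was called between the 2 sets of controls. The part of the PB controls' own levels in the Irf2 and Irf3 calls was not tested. With arrays centred on their medians, the PB controls lay 0.44 lower over all IDs. Of the 57 genes 19 were then called, all lower, beside 4406 of all 11324 tested IDs. Study arm and any difference in handling cannot be told apart here.

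Whether MHC and interferon genes move together was described over the 77 arrays after each gene's group mean was taken off, so that differences between groups do not enter. The mean of 16 MHC genes (10 of class I, 6 of class II) and the mean of 23 interferon genes (15 induced, 8 IRFs), all detected on at least 39 arrays, had Pearson's r = 0.39 and Spearman's rho = 0.36. Without the 2 arrays farthest from the MHC median r was 0.39, and without any 1 group it ran from 0.34 to 0.44. The arrays share their hybridization and depth, and no p is given. By class, class II had r = 0.37 with the induced genes and r = 0.37 with the IRFs, against 0.09 and -0.04 for class I. Class I and class II themselves had r = -0.03, and the induced genes and IRFs r = 0.48. With arrays centred on their medians instead, the MHC and interferon means had r = 0.84. No background over all IDs is given beside that value.

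**Figure D4:**
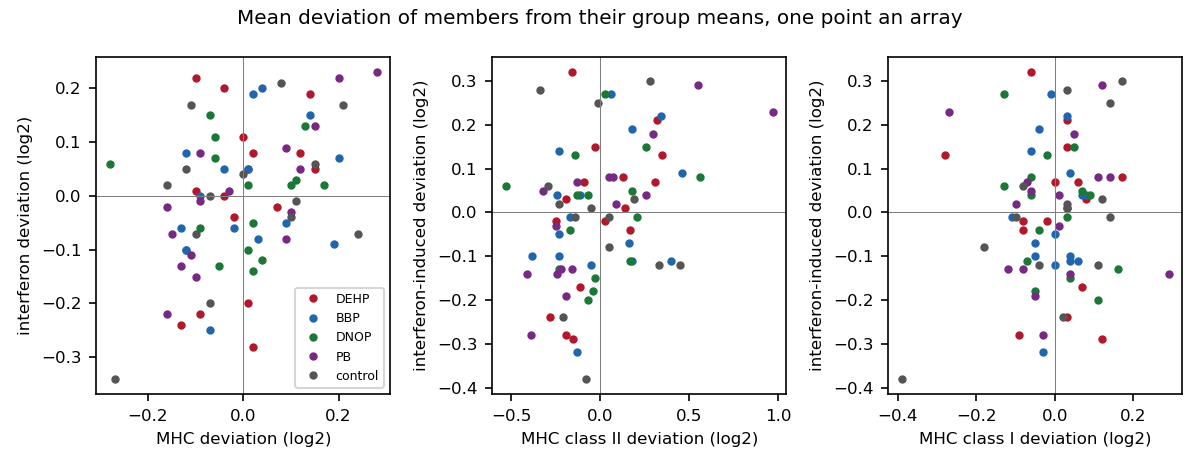
Deviation of each of 77 arrays from its group mean, in log2 units, for the mean of the MHC genes against the mean of the interferon genes, and for the classes against each other. The cloud for all MHC and interferon genes is loose (r = 0.39), and class I against the induced genes shows no slope (r = 0.09).

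Single pairs were looser than the means. The 368 pairs of an MHC and an interferon gene had a median r of 0.05, beside 0.0 over all pairs of IDs. Of the 368, 12 had r over 0.5. Over all pairs of IDs 1381682 of 30229200 did, which is a larger share, so the 12 do not exceed the background. H2-Aa was in 6 of the 12, with Oasl2 (0.77), Irf8 (0.73), Ifi47 (0.70), Ifi27 (0.62), Gbp1 (0.59) and Irf2 (0.56). Gbp1, a guanylate-binding protein, was in 2 more, with H2-Ab1 (0.55) and H2-Ea (0.53). H2-Q7, a class I gene, was in 2, with Ifi47 (0.61) and Ifi27 (0.51), and the remaining pairs were H2-Q8 with Ifitm2 (0.59) and H2-DMa with Irf7 (0.51).

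Class II was the class whose genes moved most as a set, with a median r of 0.47 over 15 pairs and 0.87 for H2-Ab1 with H2-Eb1, which encode beta chains of the A and E molecules. The median was 0.06 within class I (45 pairs), 0.17 within the induced genes (105 pairs) and 0.10 within the IRFs (28 pairs). The first 2 principal axes of 7734 other IDs held 23.4% and 18.1% of their variance, and the first had r = 0.59 with the percent of IDs detected on an array. H2-Aa (0.81), Ifi47 (0.82), Oasl2 (0.78), Ifi27 (0.72) and Irf8 (0.71) followed the first axis, as 26.3% of other IDs did with r over 0.5 in either direction. With both axes taken out, an alternative chosen after seeing the data, the MHC and interferon means had r = 0.36 and 5 pairs had r over 0.5. The contrast between the classes did not hold there. Class II then had r = 0.32 with the induced genes and 0.22 with the IRFs, against 0.17 and 0.34 for class I. Class I and class II had r = 0.24. H2-Aa then had r = 0.18 with Ifi47 and 0.30 with Oasl2, and 0.61 with H2-Ab1, against 0.33 before.

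By the same measure over 77 arrays, the IDs outside the set most like the MHC mean were Cd74 (0.77), the invariant chain that escorts class II molecules, LOC641240 (0.65), the chemokine Ccl5 (0.58), Tmsb4x (0.56) and BC013712 (0.53). After them came Cd52 (0.50), Clec4a1 (0.47), Cd274 (0.46), Fcer1g (0.46) and Hk3 (0.45). Those most like the interferon mean were Cd52 (0.73), a surface protein of white blood cells, Slc11a1 (0.73), a metal transporter of macrophage phagosomes, A630077B13Rik (0.73), Fgl1 (0.71) and Gsdmdc1 (0.71). After them came Laptm5, Gvin1, Timd4, Saa4 (0.70 each) and Lgals3 (0.69). The mean of the interferon-induced genes had r = 0.75 with the mean of the Kupffer cell markers and 0.79 with that of the other interferon targets, against 0.37 and 0.11 for the class I mean. The mean of the interferon-induced genes also had r = 0.55 with the first axis and 0.42 with the percent of IDs detected. The class II mean had r = 0.53 with the T cell markers. Of these 11 markers 6 were tested, and their mean was low in every group, from 4.56 to 4.85.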

How the data were processed

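For each of 18138 IDs on 77 arrays the authors deposited an average bead intensity, on a linear scale and not normalized, and a detection p-value, per the file headers. A deposited matrix holds an intensity that the authors normalized by a method not given in the sources used here. Array by array, it correlated with the raw intensity at a Spearman's rho of at least 0.9976, and its array medians ran from 109.2 to 110.3. No per-sample counts underlie these values, so their precision is limited by signal over background and by the number of arrays.

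The members and the gene lists were chosen with earlier results of these data known. Signals were corrected with the normexp model of limma 3.58.1 (R 4.3.3), using a background mean and SD inferred per array from detection p-values on the grid of the negative controls (798 steps, on which 69.95% of the values between 0 and 1 lay, 50 bins), with 16 added before log2 and quantile normalization. The median background SD from this grid was 5.647. The neqc function, run as an alternative, inferred 120 from all detection p-values. IDs with detection p under 0.05 on at least 3 arrays (11324) entered 1 limma fit of 18 group means. The 62 sample numbers of the labels, whose meaning is not stated, were a random block (correlation 0.099), with 59 residual and 3.27 prior degrees of freedom. Benjamini-Hochberg adjustment ran over all tested IDs within each of 20 comparisons. A self-test on simulated arrays was run before the fit. A fold with "at least" sets the brighter group's mean against the higher of the dim group's own signal and the lowest signal of a detected ID on each array. Correlations used deviations from group means and carry no p.

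Named genes were members called in any comparison, the 3 highest and 3 lowest members at each top dose, the 10 IDs most like the MHC mean and the 10 most like the interferon mean, and up to 5 called pathway genes a comparison. Of these pathway genes only some are given in the text, and some single-gene values are not reported here. Alternatives were other background corrections, median centring, the deposited matrix, other filters, no block, the replicate number of the labels as a block, array quality weights, leaving out the controls numbered 32, any 1 array or any 1 group, and, chosen after seeing the data, taking out 2 principal axes. Promoter windows came from RefSeq. Python 3.11.15 with NumPy 2.4.6, SciPy 1.17.1 and pandas 2.3.3 summarized and drew the results.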

Additional observations from a re-analysis of the deposited data

Results flagged for a closer look

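Among the samples of single groups of 4 to 10, 10 of 147 group values had a highest or lowest sample that stood apart by Dixon's 95% criterion, which chance meets in about 1 group in 20. The mean of the class I genes in phthalate control replicate 3 was 6.49, against 6.78 to 7.05 in the other controls. The mean of the class II genes in replicate 2 at 75 ppm PB was 6.96, against 5.58 to 5.75 in the others of that dose. The mean of the interferon-induced genes was 7.27 in replicate 4 at 6000 ppm BBP, against 6.88 to 6.95 in the others, and 6.79 in replicate 1 at 150 ppm PB, against 7.02 to 7.05. The mean of the IRFs in replicate 1 at 12000 ppm BBP was 7.24, against 7.43 to 7.47.

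For single genes, Gbp6 in phthalate control replicate 5 was 6.11 (others 4.82 to 5.45) and H2-M11 in phthalate control replicate 9 was 4.71 (others 4.26 to 4.46). Irf5 in replicate 2 at 3000 ppm BBP was 6.09 (others 6.99 to 7.12). Oasl2 in PB control replicate 1 was 4.44 (others 4.85 to 4.88), and Oasl1 in PB control replicate 3 was 5.54 (others 5.23 to 5.28).

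The effects of DEHP and BBP against the same controls differed, by the test of DEHP against BBP, for 4 genes at 1500 ppm (Ifit3 -0.87, Ifitm3 -0.43, Irf5 -1.31 and Irf7 -0.89), 4 at 3000 ppm (H2-Bl -1.06, Ifitm3 -0.61, Irf2 -0.76 and Irf5 -1.31) and 3 at 6000 ppm (Ifitm3 -0.58, Irf2 -0.65 and Irf5 -0.97).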

How the results depend on the processing

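Counts of called genes moved most with median centring, which gave 0 at 750 ppm DEHP, 2 at 1500 ppm DEHP, 0 at 12000 ppm BBP, 0 at 75 ppm PB, then 23, 25 and 31 at 150, 300 and 600 ppm PB, 1, 1 and 1 for DEHP against BBP at 1500, 3000 and 6000 ppm, and 19 for PB against phthalate controls. Of all 11324 tested IDs it called 5191, 3913 and 5161 at these 3 PB doses and 4406 for PB against phthalate controls. Median centring also put the correlation of the MHC and interferon means at 0.84. It turned Irf3 at 150, 300 and 600 ppm PB to 0.45, 0.35 and 0.44, Irf5 at 150 ppm PB to 0.34 and Ifi30 at 150 ppm PB to 0.22. Array quality weights gave 5 at 750 ppm DEHP, 12 at 3000 ppm DEHP, 6 at 12000 ppm BBP, 1, 2 and 3 at 2500, 5000 and 10000 ppm DNOP, 2 at 75 ppm PB, 9 for DEHP against BBP at 1500 ppm and 0 for PB against phthalate controls. The neqc background gave 1 at 750 ppm DEHP, 4 at 1500 ppm DEHP and 1 for PB against phthalate controls. The deposited matrix gave 1 for DEHP against BBP at 6000 ppm and 1 for PB against phthalate controls, no filter gave 3 at 150 ppm PB, and leaving out the controls numbered 32 gave 5 at 750 ppm and 5 at 3000 ppm DEHP. The causes were not tested. Leaving out 1 array in turn gave ranges of 0 to 4, 2 to 8, 3 to 4 and 3 to 6 with DEHP, 0 at the lower 3 doses and 1 to 4 at the highest with BBP, 0 with DNOP, 1 to 6, 1 to 5, 1 to 4 and 3 to 9 with PB, 1 to 5, 3 to 4 and 1 to 4 for DEHP against BBP, and 0 to 3 for PB against phthalate controls. Replicate numbers of the labels did not pair the samples: samples with the same replicate number had a median r of 0.05 over 253 pairs, against -0.02 over 759 pairs with different ones. With the replicate number of the labels as a block the count for PB against phthalate controls was 1, and 19 counts stayed within 1.5 times. Of the 56 named calls, 25 stayed past the threshold in the same direction with median centring, 40 with neqc, 47 without background correction, 45 with the deposited matrix, 46 with no filter and 47 with array weights. Dim genes such as Gbp10, H2-Ea and H2-M11 are limited by signal over background.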

Other observations

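Among class II genes, replicate 2 at 75 ppm PB read 7.92 for H2-Aa, 7.41 for H2-Ab1, 7.71 for H2-Eb1 and 6.58 for H2-Ea, each the highest of its dose. The same array read 7.45 for Gbp1, 8.30 for Ifi47 and 12.02 for Irf2. H2-Aa and Irf8 were detected on no PB control array, and H2-Aa there read 4.71, 4.46, 4.54 and 4.63.

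On the second principal axis of the other IDs, H2-Q8 had r = -0.83, H2-Ke6 0.73, Irf3 0.72 and Irf2bp1 0.66, and 28.3% of other IDs had r over 0.5 in either direction. H2-M3 (-0.62) ran against the first axis.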
